A study of Drosophila melanogaster with 12 samples.

Results

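In transplanted Drosophila tumours that lack the Polyhomeotic proteins, 159 of 17521 genes had far less transcript than in mutant cells that had passed through metamorphosis and than in wild-type eye discs. The genes were chosen from the deposited log2 CPM values (CPM, the reads of a gene scaled to a library of fixed size). A gene was taken when its mean over the 3 metamorphed libraries and its mean over the 3 control libraries were each at least 4, when both means lay at least 3 above the mean of the 6 tumour libraries, and when every metamorphed value and every control value exceeded every tumour value. The 159 genes were 0.907% of all genes and 3.16% of the 5036 genes that reached a mean of 4 in both metamorphed and control libraries. Because the levels of all 3 groups chose the genes, the low tumour values are given below as a description, and for these genes tests are restricted to metamorphed cells against control discs and to the ages of the tumours. The rule also used the metamorphed and control levels, and left free only which of them was higher. Calls in the other contrasts are given as background and for listed genes outside the selection, which the rule had split on the same contrasts, so that their counts are descriptions.

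Polyhomeotic is a subunit of a Polycomb complex, which keeps developmental genes silent through chromatin. The study followed cells homozygous for ph505, a loss-of-function allele of both ph-p and ph-d, and asked what separates their tumorous state from the harmless state that they reach in the adult fly. RNA was sequenced from 5 groups. Metamorphed cells (n = 3) were ph505 cells collected from adult flies. Tumours were ph505 eye disc tumours kept in adult w1118 females by weekly retransplantation and collected after 4, 8 or 14 rounds (n = 2 each). Controls (n = 3) were wild-type late third-instar eye discs placed in an adult abdomen and recovered 1 day later. Metamorphed cells were not taken from the transplanted tumours, and no untransplanted larval ph505 cells were sequenced. Differences between the groups therefore do not follow the same cells over time. The mutant cells were GFP-marked MARCM clones made with ey-flp, which is also active in leg and genital discs, so that metamorphed cells can come from several body parts, whereas control and tumour tissue came from the eye disc. No wild-type cells taken through metamorphosis were sequenced, and the metamorphed libraries were run on another instrument (NextSeq500) than the rest. Control discs had been transplanted, which the paper states alters some genes by itself, and metamorphed cells were collected from the adult flies. Genotype, metamorphosis, transplantation and instrument therefore cannot be told apart in a comparison of metamorphed cells with control discs.

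Imaginal discs are larval epithelial sacs that form the adult body wall, eyes and appendages. At metamorphosis the steroid hormone ecdysone, acting through its receptor and a cascade of induced transcription factors, ends their growth and starts terminal differentiation. Epidermal cells then lay down a cuticle of chitin fibres, chitin-binding proteins and lipids, which is hardened with catecholamines made from tyrosine, while eye cells become photoreceptors, cone and pigment cells.

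Total reads per library ran between 66046651 and 81447816 in metamorphed cells, between 16619078 and 24144498 in tumours and between 2072498 and 26137216 in control discs, so that 3 reads corresponded to 0.042 to 0.0535 CPM in metamorphed cells, to 0.121 to 0.203 CPM in tumours and to 0.0927 to 1.18 CPM in control discs. These floors cover counting error only. Transcripts of the mutated genes were present in the mutant libraries: ph-p stood at 206 to 223 CPM in metamorphed cells, 73.5 to 164 CPM in tumours and 53.3 to 84.4 CPM in control discs, and ph-d at 90.2 to 142 CPM in metamorphed cells, 43.9 to 132 CPM in tumours and 58.5 to 81.5 CPM in control discs. The RNA level of these genes therefore does not check the mutant labels. The 10 retinal determination genes outside the selection summed to 617 to 680 CPM in metamorphed cells, 235 to 638 CPM in tumours and 1414 to 1800 CPM in control discs. Of this sum, toe alone averaged 305 CPM in metamorphed cells, 57.3 CPM in tumours and 55.8 CPM in control discs. Markers of fat body (8 genes outside the selection) summed to 1466 to 2027 CPM in metamorphed cells, 9.55 to 34.6 CPM in tumours and 30.6 to 89.0 CPM in control discs.

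The 159 genes together summed to 64541, 65022 and 81372 CPM in the 3 metamorphed libraries, to between 345 and 649 CPM in the 6 tumours and to 14702, 13703 and 26781 CPM in the 3 control libraries. Per gene, the mean level ran between 17.4 and 14564 CPM in metamorphed cells (median 80.9), between 0.0113 and 36.2 CPM in tumours (median 1.32) and between 16.9 and 1634 CPM in control discs (median 56.8). CPM values are not corrected for transcript length and are compared here between samples, not between genes. On the deposited log2 scale, metamorphed cells lay 3.00 to 15.15 above tumours (median 7.15) and tumours 3.09 to 10.60 below control discs (median 6.24). For 33 of the 159 genes every tumour library was under 1 CPM, and for 15 no tumour library held more than 3 reads; none of the 159 was without a read in all 6 tumours. Across all 10177 genes with enough reads to test, 28.5% were called higher in metamorphed cells relative to tumours, and 21.6% lower in tumours relative to control discs (limma, Benjamini-Hochberg adjusted p under 0.05). Both contrasts were used by the selection, so nothing is read from them for the 159 genes. In bulk RNA, fewer cells that express a gene and less transcript per cell cannot be told apart.

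**Figure D1:**
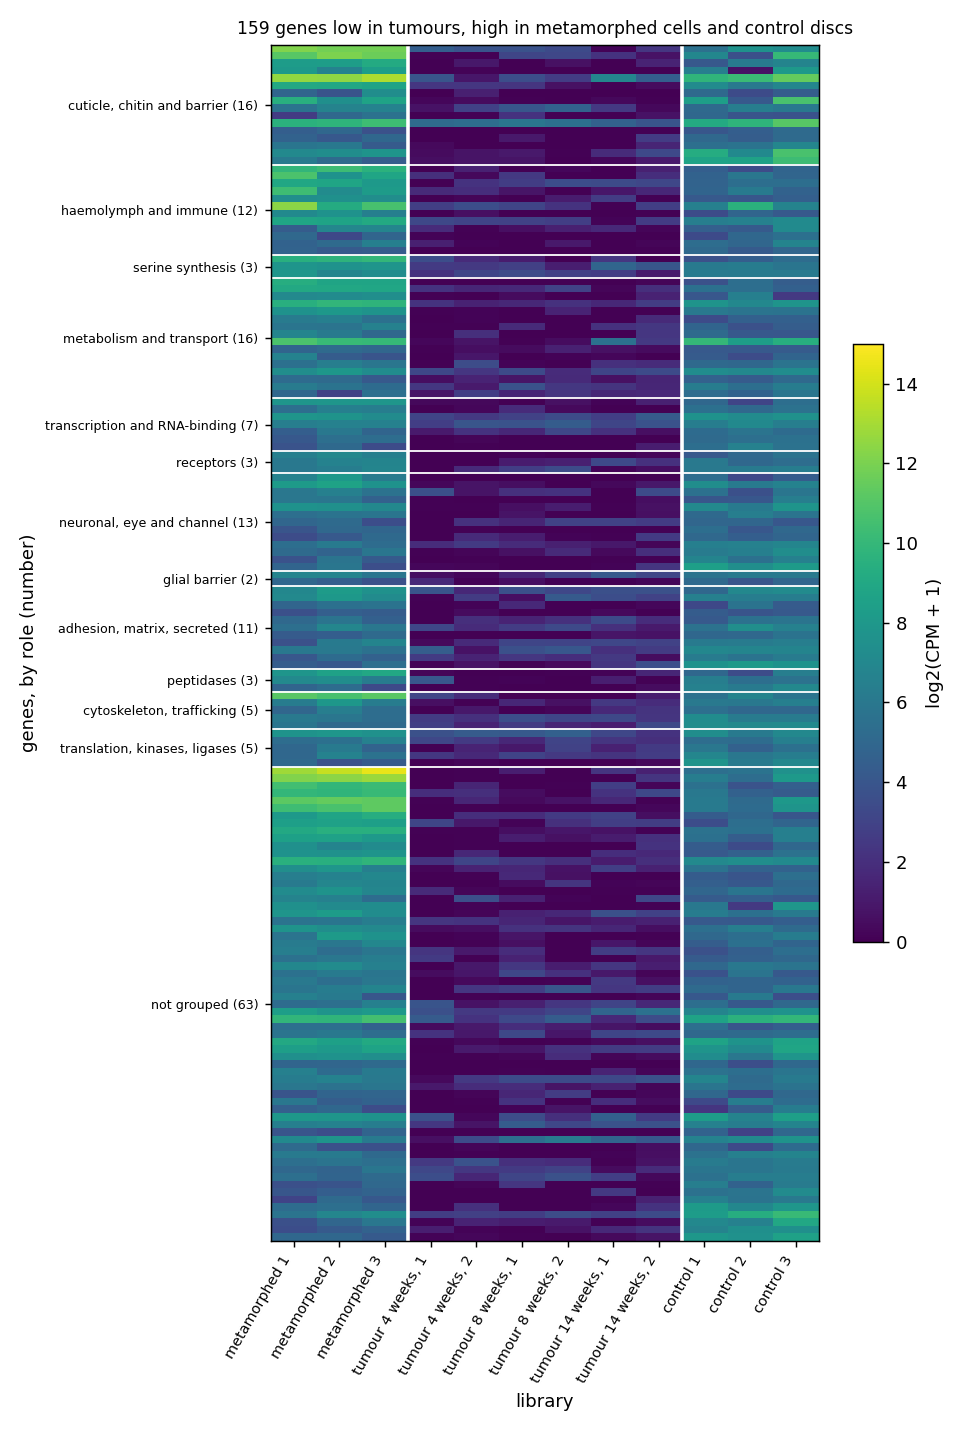
Each row is a gene, grouped by role, and each column a library; colour gives log2(CPM + 1). Metamorphed and control columns are bright for the 159 genes and the 6 tumour columns are dark, as the selection required; the 3 groups of columns are separated by white lines.

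Genes that build and harden cuticle numbered 16. Gasp, which codes for a secreted chitin-binding protein, stood at 6192, 5876 and 9191 CPM in metamorphed cells, at 0.89, 12.6 and 116 CPM in tumours (lowest, median and highest of 6) and at 910, 1180 and 2813 CPM in control discs. Its relatives of the obstructor family also code for secreted chitin-binding proteins. obst-E had 314, 323 and 579 CPM in metamorphed cells, 0, 0.283 and 1.83 CPM in tumours and 16.5, 73.6 and 106 CPM in control discs. obst-A had 72.6, 35.5 and 20.8 CPM in metamorphed cells, 0.0404, 0.602 and 1.08 CPM in tumours and 421, 400 and 1230 CPM in control discs. obst-B reached 765, 847 and 1301 CPM in metamorphed cells, against 14.5, 37.5 and 58.7 CPM in tumours and 573, 873 and 2173 CPM in control discs. Metamorphed and control libraries did not overlap for Gasp, obst-E and obst-A and overlapped for obst-B.

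Against control discs, obst-E rose in metamorphed cells with a log2 fold change of 2.91 ± 0.67 (SE; limma adjusted p = 0.0037) and obst-A fell, with -3.93 ± 0.58 (adjusted p = 1.2e-04). All fold changes are given on the log2(CPM + 1) scale, which understates those of genes near 0. Gasp was higher by 2.26 ± 0.73 (adjusted p = 0.024), a call that was lost when control 1, control 2 or any of the 3 metamorphed libraries was left out (adjusted p between 0.051 and 0.11). obst-B was not called (adjusted p = 0.84).

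The cuticle proteins with a chitin-binding Rebers-Riddiford domain spread widely between control libraries. Cpr100A stood at 698, 173 and 411 CPM in metamorphed cells, at 0, 0.136 and 0.356 CPM in tumours and at 341, 16.9 and 1656 CPM in control discs. Cpr97Eb had 267, 100 and 344 CPM in metamorphed cells and 83.9, 0.649 and 265 CPM in control discs, and 4 of the 6 tumours held no read of it. Cpr51A had 131, 160 and 217 CPM in metamorphed cells, 0.0809, 0.879 and 8.74 CPM in tumours and 622, 138 and 1665 CPM in control discs. Control 2 was the lowest and control 3 the highest control library for each of these 3 genes, and the metamorphed values fell within or overlapped the control range. None of them was called between metamorphed cells and control discs (adjusted p = 0.63, 0.13 and 0.083).

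Tyrosine hydroxylase, coded by ple, makes the dopamine precursor that is needed to tan cuticle. Its transcript stood at 2240, 4171 and 3140 CPM in metamorphed cells, at 0.0445, 2.16 and 8.25 CPM in tumours and at 120, 11.5 and 1070 CPM in control discs. The metamorphed libraries all lay above the control libraries, which differed widely, and the log2 fold change was 4.71 ± 1.09 (adjusted p = 0.0036). amd, a decarboxylase-like gene required for cuticle, was at 21.6, 31.1 and 12.1 CPM in metamorphed cells and at 14.9, 21.2 and 35.5 CPM in control discs (adjusted p = 0.85), with no tumour above 0.0677 CPM. snu, an ABC transporter of the cuticular barrier, rose to 531, 507 and 407 CPM in metamorphed cells, against 151, 66.3 and 116 CPM in control discs (log2 fold change 2.17 ± 0.47, adjusted p = 0.0022), and tumours held 0.0808, 2.31 and 4.27 CPM.

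Idgf4, an imaginal disc growth factor of the chitinase-like family, had the largest log2 fold change over control discs in this group. It stood at 4654, 3534 and 3522 CPM in metamorphed cells, at 0.121, 11.2 and 21.3 CPM in tumours and at 47.4, 203 and 153 CPM in control discs, a log2 fold change of 5.07 ± 0.57 over control discs (adjusted p = 1.3e-05). Of the enzymes that remodel chitin, Cht7, Cht5 and Cda5 met the selection, and none of the 3 was called between metamorphed cells and control discs. The chitinase Cht7 had 52.0, 103 and 98.0 CPM in metamorphed cells and 33.7, 86.1 and 62.6 CPM in control discs, Cht5 had 25.1, 16.3 and 31.4 CPM in metamorphed cells and 32.1, 20.9 and 35.4 CPM in control discs, and the chitin deacetylase Cda5 had 56.1, 63.5 and 18.7 CPM in metamorphed cells and 43.9, 52.3 and 117 CPM in control discs. The groups overlapped for all 3 enzymes (adjusted p = 0.58, 0.76 and 0.43). Over the 16 genes, 5 rose in metamorphed cells relative to control discs (ple, Gasp, Idgf4, obst-E and snu), 1 fell (obst-A) and 10 were not called, with a median log2 fold change of 0.64; over all 10177 genes tested, 21.6% were called higher in metamorphed cells and 19.0% lower, with a median of -0.03.

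Of 26 listed chitin and cuticle assembly genes found in the table, 8 met the selection. Of the 17 others that could be tested, 1 was higher and 6 were lower in tumours than in control discs, 10 were higher and 1 was lower in metamorphed cells than in tumours, and 7 were higher and 3 lower in metamorphed cells than in control discs. The 3 lower genes were kkv and the chitinase genes Cht6 and Cht10, while the chitinase gene Cht2 was among the higher ones. kkv, which codes for the chitin synthase of the epidermis, was not among the 159 genes: it averaged 40.1 CPM in metamorphed cells, 20.3 CPM in tumours and 504 CPM in control discs. Of 9 testable tanning and epidermal barrier genes other than ple, 2 were lower in tumours than in control discs and none was higher. Relative to tumours, 8 of the 9 were higher in metamorphed cells and none was lower. Relative to control discs, 5 of the 9 were higher in metamorphed cells and 1 was lower. The lower gene was grh, with a mean of 67.3 CPM in metamorphed cells and 157 CPM in control discs.

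**Figure D2:**
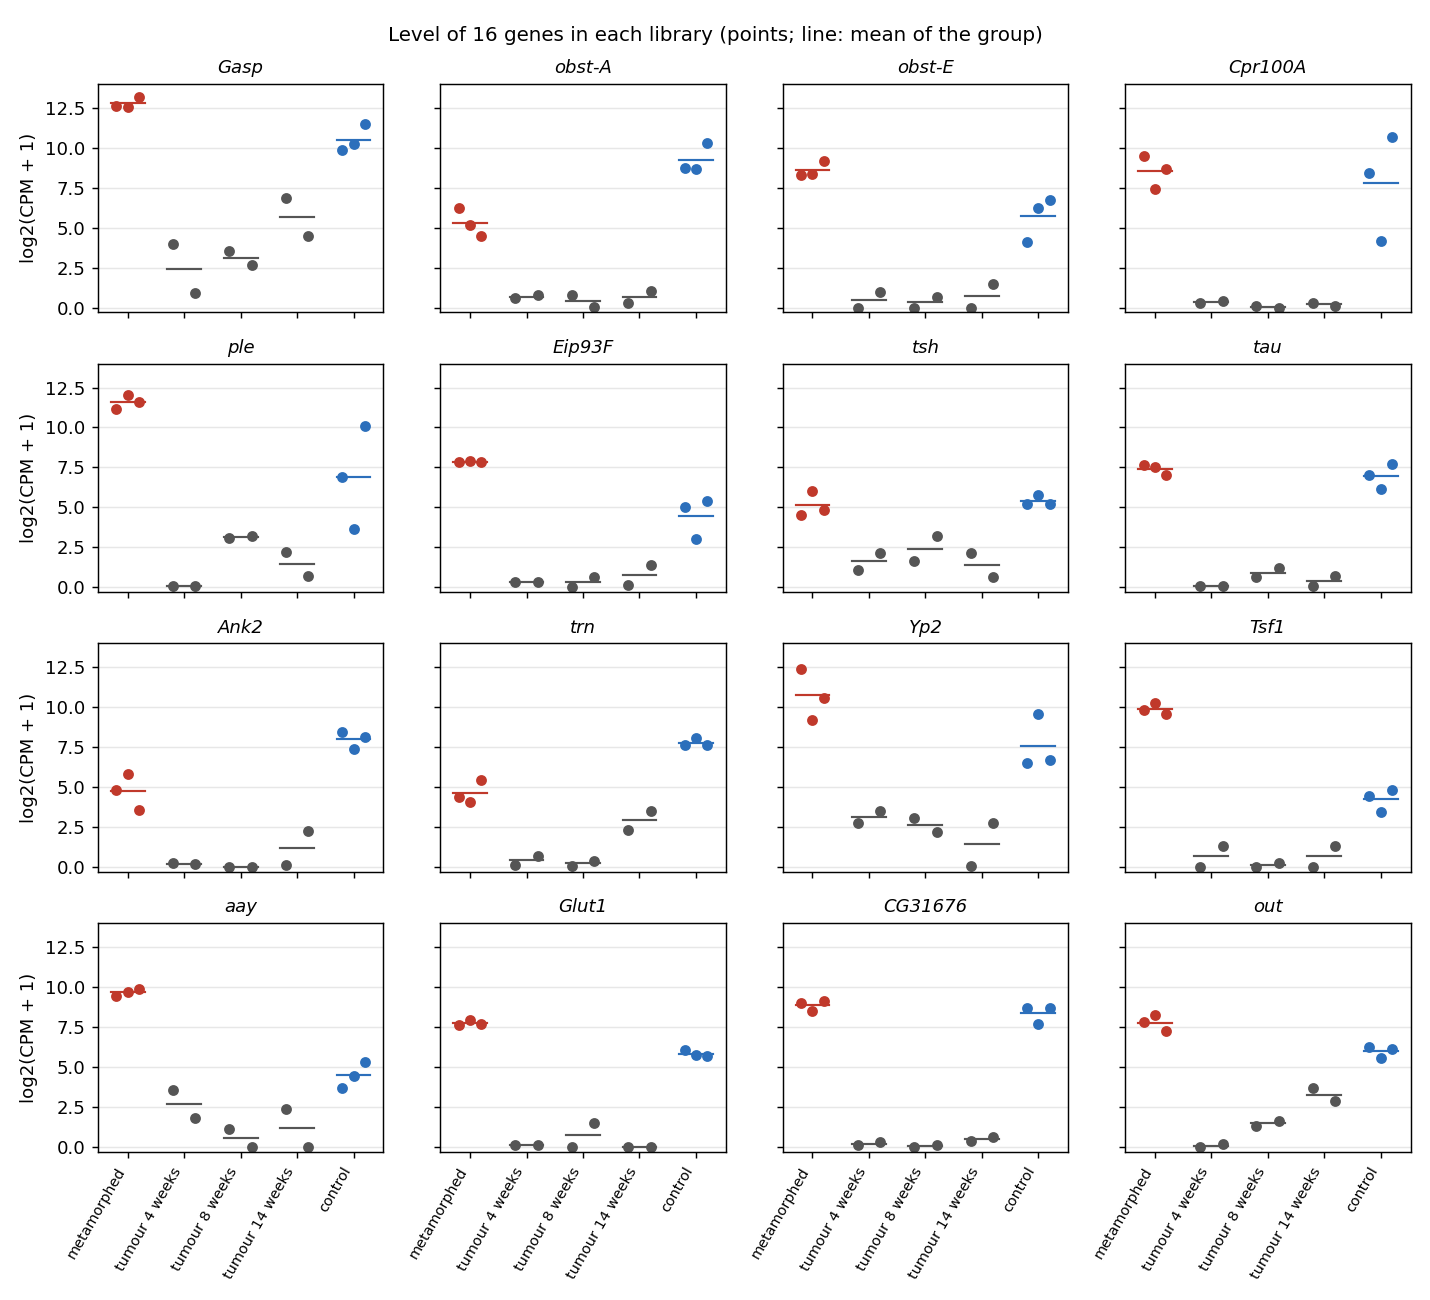
Levels of 16 of the genes as log2(CPM + 1), with a point for each library and a line for the mean of metamorphed cells, tumours after 4, 8 and 14 weeks, and control discs. Gasp, ple, Tsf1 and aay lie higher in metamorphed cells than in control discs, obst-A, Ank2 and trn lower, and CG31676, tsh and tau overlap; out is higher in each later tumour age.

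Eip93F, the ecdysone-induced transcription factor that specifies adult cell fates, was among the genes lost in tumours. It stood at 228, 237 and 231 CPM in metamorphed cells, at 0, 0.256 and 1.63 CPM in tumours and at 31.4, 7.32 and 41.2 CPM in control discs. The 3 metamorphed libraries agreed closely and all exceeded the control libraries, with a log2 fold change of 3.37 ± 0.61 (adjusted p = 6.6e-04). Of 23 listed ecdysone response genes, 21 were found in the table, and among these 21 only Eip93F met the selection. Of the 19 others that could be tested, 6 were lower in tumours than in control discs and none was higher, while 7 were higher and 3 lower in metamorphed cells than in tumours. Against control discs, where Eip93F was higher, 3 of the 19 were higher and 5 lower in metamorphed cells, with a median log2 fold change of -0.68. The receptor gene EcR was among the 5 lower genes. The microRNA locus let-7-C was not among the 21 genes found, so its level was not examined here. The paper places that locus in a group of ecdysone-responsive genes with decreased levels in tumours and increased levels in metamorphed cells.

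Most other genes of transcription and RNA-binding factors were not called between metamorphed cells and control discs. ovo, whose shavenbaby isoform directs the formation of cuticular hairs, had 85.7, 95.5 and 96.4 CPM in metamorphed cells, 5.93, 13.2 and 19.2 CPM in tumours and 79.6, 139 and 84.9 CPM in control discs. teashirt (tsh), a zinc-finger factor of the eye and of proximal appendages, had 21.8, 63.3 and 28.0 CPM in metamorphed cells, 0.542, 2.82 and 8.17 CPM in tumours and 36.9, 53.5 and 36.4 CPM in control discs. Neither was called (adjusted p = 0.89 and 0.74), and for both the metamorphed and control ranges overlapped. sob, a factor of the odd-skipped family, was at 16.4, 43.5 and 40.1 CPM in metamorphed cells and at 35.7, 43.5 and 46.8 CPM in control discs, with 0, 0.0202 and 0.134 CPM in tumours (adjusted p = 0.52). The RNA-binding factor couch potato (cpo) had 223, 209 and 147 CPM in metamorphed cells, 4.63, 7.11 and 18.2 CPM in tumours and 200, 147 and 190 CPM in control discs (adjusted p = 0.87). sm, another RNA-binding protein gene, was also not called, with 41.1, 88.4 and 82.1 CPM in metamorphed cells, 0, 0.132 and 2.56 CPM in tumours and 45.5, 33.2 and 48.4 CPM in control discs (adjusted p = 0.34).

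The homeobox gene B-H1, which acts in eye, antennal and bristle development, lay below its control level in metamorphed cells. It had 13.3, 33.8 and 9.95 CPM in metamorphed cells, against 41.2, 94.5 and 49.1 CPM in control discs. In tumours B-H1 had a median of 0 CPM and a maximum of 1.29 CPM. Its log2 fold change was -1.74 ± 0.58 (adjusted p = 0.029), and the call was lost without control 2, control 3, metamorphed 1 or metamorphed 3 (adjusted p between 0.052 and 0.11). Of the 7 factors, 1 rose, 1 fell and 5 were not called, where 21.6% of all genes tested were called higher and 19.0% lower. tsh was the only gene from a list of 11 retinal determination genes that met the selection. Of the 10 others, 7 were lower in tumours than in control discs and 1 (Optix) was higher. In metamorphed cells 6 of the 10 were lower than in control discs and 1 (toe) was higher.

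Genes of nerve cells, of the eye and of ion channels numbered 13, of which 2 rose, 2 fell and 9 were not called. Over all genes tested 21.6% were called higher in metamorphed cells than in control discs and 19.0% lower. Ank2, a neuronal ankyrin that links membrane proteins to the cytoskeleton, had 27.7, 57.2 and 11.2 CPM in metamorphed cells, 0, 0.127 and 3.93 CPM in tumours and 352, 171 and 284 CPM in control discs (log2 fold change -3.24 ± 0.66, adjusted p = 0.0015). The photoreceptor protein kinase C gene inaC had 13, 54.7 and 17.9 CPM in metamorphed cells and 110, 46.3 and 93.4 CPM in control discs, and no tumour exceeded 0.0808 CPM. For inaC, metamorphed 2 lay above control 2, so the groups overlapped; the log2 fold change was -1.69 ± 0.58 (adjusted p = 0.033) and was no longer called without control 1, control 3, metamorphed 1 or metamorphed 3 (adjusted p between 0.094 and 0.12).

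Ggamma30A, which codes for the G protein gamma subunit of the light response, rose to 98.4, 250 and 74.5 CPM in metamorphed cells, against 39.6, 8.68 and 20.0 CPM in control discs (log2 fold change 2.61 ± 0.61, adjusted p = 0.004), while 4 of 6 tumours held no read. The TRPA channel gene pain had 284, 401 and 196 CPM in metamorphed cells, at most 0.948 CPM in tumours and 160, 71.4 and 98.5 CPM in control discs. Its log2 fold change of 1.43 ± 0.47 (adjusted p = 0.028) was not called without control 2, control 3, metamorphed 1 or metamorphed 2 (adjusted p between 0.068 and 0.11). tau, a microtubule-associated protein gene, had 201, 181 and 128 CPM in metamorphed cells, 0.0445, 0.319 and 1.29 CPM in tumours and 130, 71.0 and 214 CPM in control discs, with overlap and no call (adjusted p = 0.53). Rab32, a small GTPase of pigment granules that was counted with the trafficking genes, had 77.5, 243 and 79.2 CPM in metamorphed cells, 0.0445, 1.4 and 4.61 CPM in tumours and 65.5, 62.0 and 88.2 CPM in control discs (adjusted p = 0.34).

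None of the 14 listed general neuron markers in the table met the selection; their sum was 442 to 535 CPM in metamorphed cells, 454 to 878 CPM in tumours and 1058 to 1558 CPM in control discs. Of 23 testable photoreceptor genes other than inaC, 11 were lower in tumours than in control discs and 17 were higher in metamorphed cells than in tumours. Relative to control discs, 12 of the 23 were higher in metamorphed cells and 6 were lower, where 21.6% and 19.0% of all genes tested were. The 6 lower genes were norpA, chp, sev, ro, ato and sens. The summed photoreceptor markers differed between metamorphed libraries, with 1537, 2780 and 659 CPM. Metamorphed 2, the highest of them, was also the highest metamorphed library for inaC, Ggamma30A, pain and Rab32, but not for tau. Among all 159 genes, 63 were highest in metamorphed 2, 43 in metamorphed 1 and 53 in metamorphed 3. Tumours held no read of the light-response genes ninaE, Rh3, Rh6, trp and trpl, and control discs none of Rh3, Rh6, trp and trpl. The part of photoreceptor cells in the values of inaC, Ggamma30A, pain and Rab32 was not tested.

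Among glial genes, moody, a G protein-coupled receptor, and Mdr65, an ABC transporter, both act in the blood-brain barrier and both met the selection. moody had 108, 108 and 55.9 CPM in metamorphed cells, 0.178, 4.1 and 16.4 CPM in tumours and 54.5, 69.6 and 70.8 CPM in control discs. Mdr65 had 30.8, 21.3 and 12.1 CPM in metamorphed cells, 0, 0.09 and 2.37 CPM in tumours and 33.7, 14.7 and 29.7 CPM in control discs. Both overlapped between metamorphed cells and control discs and neither was called (adjusted p = 0.52 and 0.73). The 12 other glial markers summed to 3289 to 3675 CPM in metamorphed cells, 145 to 300 CPM in tumours and 177 to 330 CPM in control discs. Gs2 alone made up nearly all of the sum in metamorphed cells, and without it the other 11 markers summed to 184 to 239 CPM in metamorphed cells, 144 to 300 CPM in tumours and 174 to 327 CPM in control discs. The defining factor repo averaged 3.36 CPM in metamorphed cells, 0.247 CPM in tumours and 11.9 CPM in control discs.

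Adhesion, matrix and secreted signalling genes numbered 11, where 21.6% of all genes tested were called higher in metamorphed cells and 19.0% lower. Of the 11, 10 were not called and 1 fell. The exception was tartan (trn), a leucine-rich repeat receptor of cell affinity, with 20.1, 16.0 and 43.6 CPM in metamorphed cells, 0.0557, 0.496 and 10.7 CPM in tumours and 198, 268 and 196 CPM in control discs (log2 fold change -3.12 ± 0.51, adjusted p = 2.9e-04). Its relative capricious (caps) had 135, 252 and 152 CPM in metamorphed cells, 0.0818, 5.92 and 17.8 CPM in tumours and 90.9, 81.5 and 81.3 CPM in control discs. All metamorphed libraries lay above all control libraries for caps, but the change was not called (adjusted p = 0.32). The integrin ligand gene Tig had 124, 298 and 191 CPM in metamorphed cells, 2.14, 11.9 and 13.7 CPM in tumours and 30.6, 125 and 151 CPM in control discs (adjusted p = 0.16).

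Receptor genes numbered 3. The receptor tyrosine kinase gene Tie rose to 88.7, 129 and 86.7 CPM in metamorphed cells, against 16.9, 32.0 and 50.5 CPM in control discs (log2 fold change 1.69 ± 0.50, adjusted p = 0.017), and tumours held at most 0.203 CPM. The call was lost without control 1 (adjusted p = 0.068) or metamorphed 2 (adjusted p = 0.054). The PDGF/VEGF receptor gene Pvr had 64.2, 99.5 and 110 CPM in metamorphed cells, 0, 1.31 and 8.77 CPM in tumours and 65.9, 30.9 and 39.7 CPM in control discs (adjusted p = 0.11). The Toll receptor gene Tl had 63.7, 80.1 and 111 CPM in metamorphed cells, 0.0409, 1.46 and 9.71 CPM in tumours and 65.9, 72.1 and 79.5 CPM in control discs (adjusted p = 0.79).

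Haemolymph and immune protein genes numbered 12, and 8 of them were higher in metamorphed cells than in control discs, none lower, with a median log2 fold change of 3.04. The shares over all genes tested were 21.6% higher and 19.0% lower. Tsf1, a secreted iron-binding transferrin, stood at 931, 1243 and 761 CPM in metamorphed cells, at 0, 0.101 and 1.56 CPM in tumours and at 21.2, 10.1 and 27.6 CPM in control discs, a log2 fold change of 5.65 ± 0.55 (adjusted p = 3.8e-06). The thioester-containing protein gene Tep2 had 497, 459 and 267 CPM in metamorphed cells, 0.0409, 6.93 and 10.6 CPM in tumours and 25.9, 42.4 and 41.7 CPM in control discs (log2 fold change 3.42 ± 0.52, adjusted p = 1.7e-04). grass, a serine protease gene of the Toll pathway, had 171, 186 and 162 CPM in metamorphed cells, 0, 0.101 and 5.33 CPM in tumours and 17.6, 14.9 and 22.4 CPM in control discs (log2 fold change 3.19 ± 0.62, adjusted p = 0.001). For these 3 genes every metamorphed library exceeded every control library. The same was true of the transglutaminase gene Tg, with 138, 201 and 89.4 CPM in metamorphed cells and 9.8, 28.5 and 17.4 CPM in control discs (log2 fold change 2.92 ± 0.53, adjusted p = 6.4e-04), and of the serpin gene Spn77Ba, with 447, 416 and 542 CPM in metamorphed cells and 82.7, 96.6 and 145 CPM in control discs (2.14 ± 0.52, adjusted p = 0.0049). Tep3, which lies beside Tep2, did not follow it: Tep3 had 26.8, 18.1 and 19.7 CPM in metamorphed cells and 33.3, 18.2 and 30.0 CPM in control discs (adjusted p = 0.64), and 5 of 6 tumours held no read.

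The 3 yolk protein genes, which the fat body and ovarian follicle cells of adult females express, all met the selection. Yp2 stood at 5433, 601 and 1565 CPM in metamorphed cells, at 0.0808, 5.84 and 10.6 CPM in tumours and at 91.3, 770 and 102 CPM in control discs. Yp1 had 1304, 149 and 302 CPM in metamorphed cells, at most 2.85 CPM in tumours and 27.4, 72.7 and 25.2 CPM in control discs. Yp3 had 1754, 197 and 449 CPM in metamorphed cells, at most 4.62 CPM in tumours and 25.1, 59.8 and 28.6 CPM in control discs. In each of the 3 genes metamorphed 1 was the highest metamorphed library and control 2 the highest control library, which for Yp2 lay above metamorphed 2.

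The log2 fold changes over control discs were 3.36 ± 0.70 for Yp1 (adjusted p = 0.0018), 3.15 ± 0.91 for Yp2 (adjusted p = 0.014) and 3.90 ± 0.86 for Yp3 (adjusted p = 0.0027). The call for Yp2 was lost without metamorphed 1 (adjusted p = 0.085), control 1 (0.08) or control 3 (0.077). The 8 fat body markers outside the selection summed to 1980, 1466 and 2027 CPM in metamorphed cells, to 9.55 to 34.6 CPM in tumours and to 30.6, 89.0 and 48.3 CPM in control discs, and 7 of them were higher in metamorphed cells than in control discs. Control 2 was thus the highest control library for these markers as for the yolk proteins. In metamorphed cells the order differed, with the markers highest in metamorphed 3 and the yolk proteins in metamorphed 1. Other haemolymph and immune genes were mixed: Tep2 and Tg were highest in control 2, and Tsf1 and grass were lowest there. The tumours held no read of Lsp1alpha, Lsp1beta, Fbp1 and Fbp2, and the control discs none of Fbp1. Haemocyte markers (11 genes, none selected) summed to 711 to 1214 CPM in metamorphed cells, 46.9 to 108 CPM in tumours and 106 to 243 CPM in control discs, and 13 antimicrobial peptide genes to 332 to 637 CPM in metamorphed cells, 0.525 to 95.2 CPM in tumours and 11.4 to 60.2 CPM in control discs. Of the testable genes, 8 of 11 haemocyte markers and 10 of 12 antimicrobial peptide genes were higher in metamorphed cells than in control discs, and none was lower. For comparison, 21.6% of all genes tested were called higher and 19.0% lower. The part of fat body or blood cells, of the metamorphed samples or of the hosts, in the haemolymph and immune genes was not tested.

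The whole serine synthesis pathway was in the selection. Its enzymes, phosphoglycerate dehydrogenase (CG6287), phosphoserine aminotransferase (CG11899) and phosphoserine phosphatase (aay), act in that order on 3-phosphoglycerate. CG6287 had 237, 114 and 156 CPM in metamorphed cells, 1.15, 5.72 and 10.1 CPM in tumours and 73.3, 72.6 and 70.8 CPM in control discs. CG11899 had 223, 202 and 221 CPM in metamorphed cells, 1.42, 5.53 and 28.8 CPM in tumours and 68.2, 76.3 and 56.7 CPM in control discs. aay had 696, 823 and 960 CPM in metamorphed cells, 0, 1.9 and 10.9 CPM in tumours and 12.2, 21.0 and 38.6 CPM in control discs. For all 3 enzymes every metamorphed library lay above every control library. The log2 fold change was 5.19 ± 0.66 for aay (adjusted p = 3.8e-05) and 1.67 ± 0.42 for CG11899 (adjusted p = 0.0064), whereas CG6287 was not called (adjusted p = 0.07). No list of the other amino acid pathways was compared.

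Other genes of metabolism and transport numbered 16, of which 7 rose in metamorphed cells relative to control discs, none fell and 9 were not called. Over all genes tested 21.6% were called higher and 19.0% lower. The glucose transporter gene Glut1 had 199, 252 and 204 CPM in metamorphed cells, 0, 0.0409 and 1.82 CPM in tumours and 65.5, 54.0 and 51.7 CPM in control discs (log2 fold change 1.92 ± 0.47, adjusted p = 0.0055). Picot, a phosphate cotransporter gene, had 650, 441 and 428 CPM in metamorphed cells, a median of 0 CPM and at most 0.135 CPM in tumours and 12.2, 41.7 and 20.9 CPM in control discs (log2 fold change 4.43 ± 0.50, adjusted p = 1.4e-05). Sestrin (Sesn), which restrains growth signalling through TOR, had 521, 502 and 469 CPM in metamorphed cells, 0.162, 2.73 and 6.92 CPM in tumours and 45.5, 41.9 and 23.1 CPM in control discs (log2 fold change 3.77 ± 0.52, adjusted p = 7.2e-05). The groups did not overlap for any of these 3 genes. The scavenger receptor-like gene emp rose too, to 719, 921 and 859 CPM in metamorphed cells, against 220, 125 and 212 CPM in control discs (log2 fold change 2.20 ± 0.39, adjusted p = 5.1e-04).

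Arginine kinase (Argk1), which buffers ATP, had 1749, 1099 and 1076 CPM in metamorphed cells and 1000, 333 and 683 CPM in control discs (adjusted p = 0.2). In tumours Argk1 had a median of 0.581 CPM, and only the 14-week libraries exceeded 1 CPM, with 46.9 and 4.61 CPM. Ornithine aminotransferase (Oat) had 132, 149 and 166 CPM in metamorphed cells, 0, 0.0611 and 1.69 CPM in tumours and 15.7, 89.2 and 4.64 CPM in control discs. Its log2 fold change of 2.87 ± 0.80 (adjusted p = 0.011) was not called without control 3 (adjusted p = 0.06).

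Several of the genes with the clearest loss in tumours have no role that the sources used here describe. By the lower of the 2 differences on the deposited log2 scale, the first was CG31676, at 10.60, with 522, 372 and 553 CPM in metamorphed cells, 0, 0.174 and 0.542 CPM in tumours and 414, 209 and 423 CPM in control discs. The next were Cpr100A (10.20), GV1 (9.60), FBgn0031629 (9.30), Argk1 (9.01), CG9701 (8.70), CG34355 (8.69), flap (8.62), Glut1 (8.57) and tau (8.57). GV1 had 1312, 1622 and 2496 CPM in metamorphed cells, at most 0.203 CPM in tumours and 67.8, 37.0 and 216 CPM in control discs (log2 fold change 4.40 ± 0.55, adjusted p = 3.3e-05). FBgn0031629, an identifier for which the annotation used here gives no symbol, had 4529, 5274 and 6972 CPM in metamorphed cells, 0, 0.0204 and 3.93 CPM in tumours and 80.8, 39.3 and 273 CPM in control discs (log2 fold change 5.83 ± 0.66, adjusted p = 1.3e-05). CG9701 was at 187, 145 and 155 CPM in metamorphed cells, at most 0.089 CPM in tumours and at 64.3, 4.54 and 232 CPM in control discs (adjusted p = 0.14). CG31676, CG9701, CG34355 and flap overlapped between metamorphed cells and control discs and were not called. CG34355 had 179, 197 and 168 CPM in metamorphed cells, 0.0445, 0.164 and 2.71 CPM in tumours and 156, 60.4 and 229 CPM in control discs, and flap had 71.1, 72.3 and 34.6 CPM in metamorphed cells, 0, 0.0427 and 0.542 CPM in tumours and 49.8, 92.5 and 106 CPM in control discs.

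The levels of the 159 genes in metamorphed cells were compared with those in control discs. Of the 159, 49 (30.8%) were higher in metamorphed cells than in control discs, 15 (9.43%) were lower and 95 were not called by limma. Over all 10177 genes tested, 21.6% were called higher and 19.0% lower, 40.6% in either direction, and over the 5036 genes with a mean of at least 4 in both groups 20.3% were higher and 11.9% lower. The selection removed genes that were low in metamorphed cells and genes that were low in control discs, so that these shares are partly set by it and nothing is read from their difference from the background. All 159 passed the filter for the test, which the selection guaranteed. The median log2 fold change of the 159 was 0.66, against -0.03 over all genes tested and 0.14 over the 5036. By library ranges, 59 of the 159 genes lay wholly above control discs in metamorphed cells and 21 wholly below, where 27.3% and 24.5% of all tested genes did so, and 79 overlapped.

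The ratio of mean CPM in metamorphed cells to that in control discs was within 2-fold for 75 genes, 2 to 4 for 26, at least 4 for 39, of which 18 reached 10, 0.25 to 0.5 for 9 and at most 0.25 for 10. These counts depend on the scaling: with CPM of total reads in place of the authors' normalised libraries, the median over all genes moved to -0.46 and that of the 159 to 0.16, and 41 were higher and 21 lower, so that 66.1% of the called genes were higher, against 76.6% with normalised libraries; over all genes tested the same share was 36.5%, against 53.2% with normalised libraries.

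**Figure D3:**
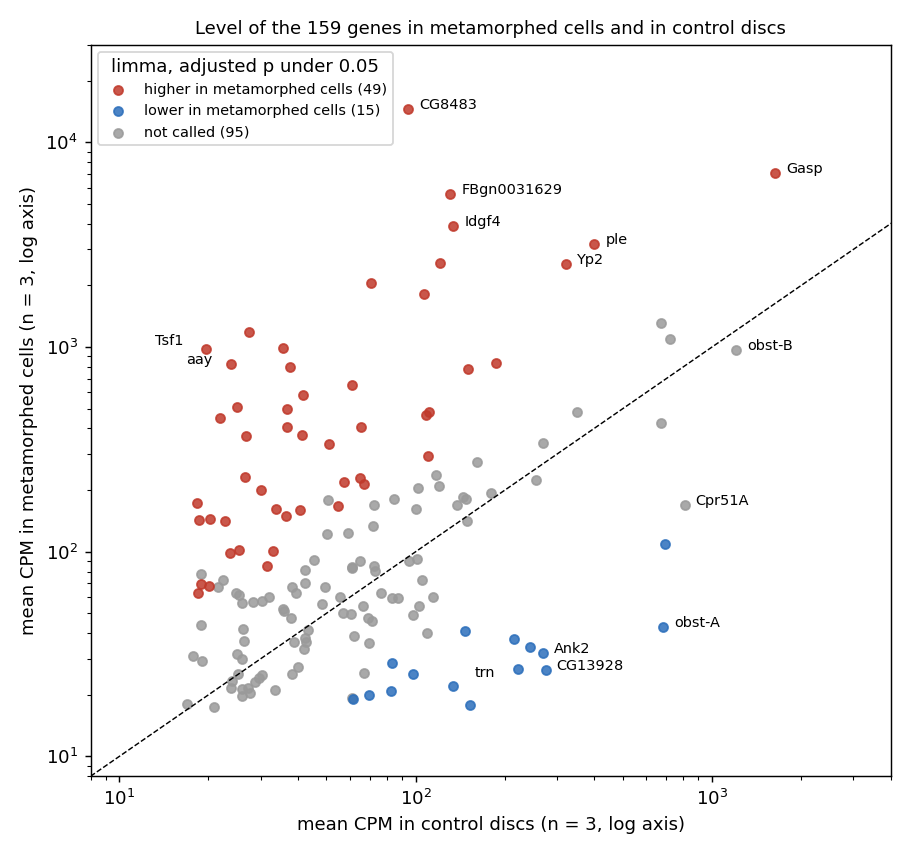
Mean CPM of each of the 159 genes in metamorphed cells (vertical, n = 3) against control discs (horizontal, n = 3), both on log axes, with the dashed line marking equal levels. The 49 genes called higher in metamorphed cells reach a mean of 14564 CPM (CG8483), and the 15 called lower lie below the line, obst-A farthest.

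The greatest increases over control discs were those of CG8483, FBgn0031629, Tsf1, CG13868, aay and Idgf4. CG8483 had 7446, 13348 and 22899 CPM in metamorphed cells, 0, 0.718 and 4.04 CPM in tumours and 42.7, 51.0 and 190 CPM in control discs, a log2 fold change of 7.44 ± 0.58 (adjusted p = 6.2e-07) and a ratio of means of 154. CG13868 had 1404, 969 and 1194 CPM in metamorphed cells, 0, 0.108 and 5.78 CPM in tumours and 46.7, 13.4 and 22.0 CPM in control discs (log2 fold change 5.55 ± 0.66, adjusted p = 2.0e-05). For both genes every metamorphed library exceeded every control library by more than an order of magnitude.

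The greatest decreases were those of obst-A, CG13928, Ank2, trn, peg and CG13722. CG13928 had 30.7, 31.2 and 17.7 CPM in metamorphed cells, 0, 0.15 and 0.745 CPM in tumours and 248, 188 and 388 CPM in control discs (log2 fold change -3.30 ± 0.47, adjusted p = 9.5e-05). peg had 10.5, 18.0 and 25.0 CPM in metamorphed cells, 0, 1.04 and 3.79 CPM in tumours and 103, 177 and 177 CPM in control discs (log2 fold change -3.06 ± 0.53, adjusted p = 4.4e-04). CG13722 had 11.9, 29.8 and 60.9 CPM in metamorphed cells, 0.0808, 0.769 and 1.78 CPM in tumours and 126, 96.2 and 507 CPM in control discs (log2 fold change -2.66 ± 0.71, adjusted p = 0.0089), a call that was lost without control 3 (adjusted p = 0.055). In metamorphed cells these genes lay above all tumours, as the selection required, and below all control libraries. The same held for CG13676, with 52.6, 115 and 160 CPM in metamorphed cells, 5.51, 6.3 and 10.2 CPM in tumours and 312, 650 and 1120 CPM in control discs (log2 fold change -2.61 ± 0.50, adjusted p = 9.5e-04).

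Further decreases were found for eEF1alpha2, a translation elongation factor, which had 34.0, 13 and 19.1 CPM in metamorphed cells, at most 0.271 CPM in tumours and 212, 67.8 and 123 CPM in control discs (log2 fold change -2.51 ± 0.54, adjusted p = 0.0023). The peptidase gene Ance, related to angiotensin-converting enzyme, had 27.8, 39.0 and 8.75 CPM in metamorphed cells, at most 0.406 CPM in tumours and 96.8, 67.9 and 129 CPM in control discs (log2 fold change -2.09 ± 0.57, adjusted p = 0.0099). Metamorphed and control libraries did not overlap for either gene. The other gene of a membrane peptidase that was called, SP1029, rose to 225, 378 and 508 CPM in metamorphed cells, against 30.6, 10.2 and 83.4 CPM in control discs (log2 fold change 3.51 ± 0.68, adjusted p = 0.0011).

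Of 5 cytoskeleton and trafficking genes, 1 rose, 1 fell and 3 were not called. The tetraspanin gene Tsp74F had 2236, 1613 and 2316 CPM in metamorphed cells, against 48.2, 110 and 53.2 CPM in control discs (log2 fold change 4.93 ± 0.47, adjusted p = 3.1e-06). btsz, a synaptotagmin-like gene, had 54.8, 33.8 and 34.7 CPM in metamorphed cells, against 162, 133 and 146 CPM in control discs (log2 fold change -1.84 ± 0.56, adjusted p = 0.019), and was not called without control 1, control 3, metamorphed 2 or metamorphed 3 (adjusted p between 0.058 and 0.065) and with the trend over transcript length removed (-1.15, adjusted p = 0.11). No role group was assigned to 63 of the 159 genes, of which 21 rose, 7 fell and 35 were not called. Over all genes tested 21.6% were called higher and 19.0% lower.

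**Figure D4:**
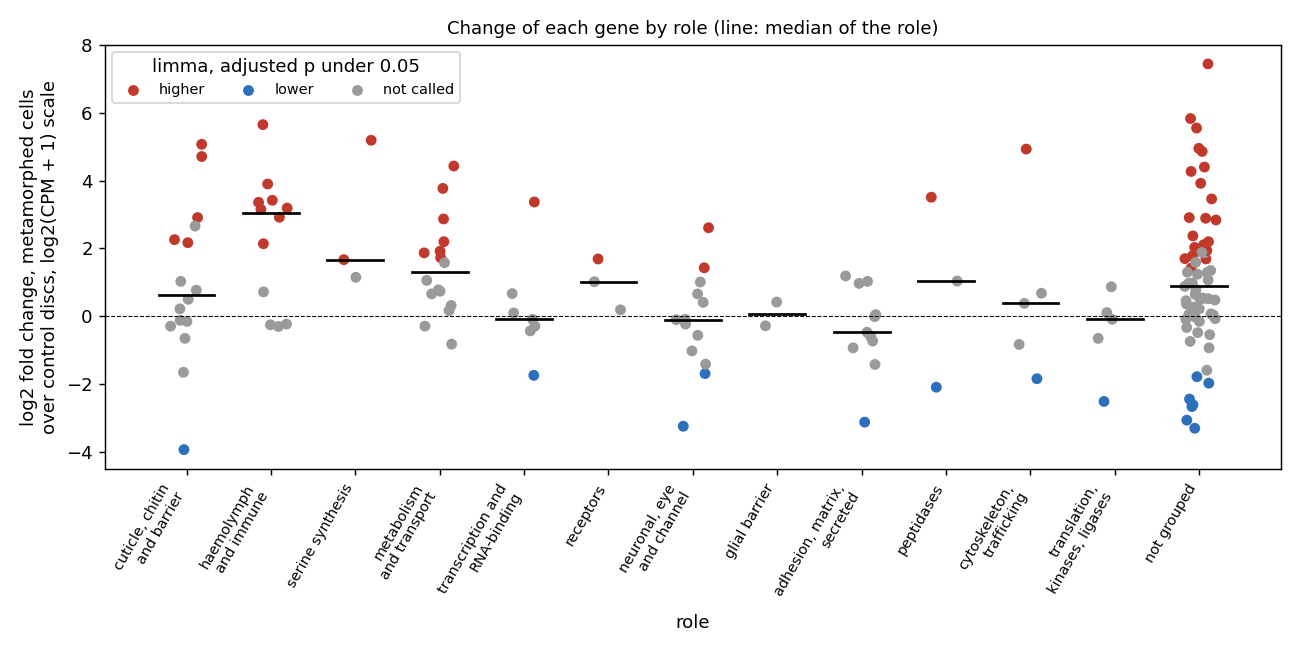
Log2 fold change of metamorphed cells over control discs for each of the 159 genes, by role; colours mark genes called higher or lower by limma and lines the median of a role. Haemolymph and immune genes have a median of 3.04 and none called lower, and adhesion and matrix genes a median of -0.47 and none called higher. Over all genes tested 21.6% were called higher and 19.0% lower.

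Some transcript remained in tumours. The mean tumour level was under 1 CPM for 65 of the 159 genes and at least 5 CPM for 31, and 36 reached 10 CPM in some tumour. Besides obst-B (36.2 ± 15.6 CPM, mean ± SD, n = 6) and Gasp (28.1 ± 43.7 CPM), the highest by mean CPM were CG30440 (27.2 ± 24.7 CPM), CG42342 (17.3 ± 16.8 CPM) and the kinase gene Dyrk2 (13.8 ± 7.32 CPM). CG30440 had 139, 214 and 71.0 CPM in metamorphed cells, 0.532, 21.7 and 68.5 CPM in tumours and 100, 138 and 210 CPM in control discs, so that the highest tumour nearly reached the lowest metamorphed library. For CG42342 the metamorphed libraries had 342, 220 and 261 CPM, tumours 4.63, 9.71 and 46.5 CPM and control discs 107, 177 and 199 CPM. Dyrk2 had 205, 232 and 194 CPM in metamorphed cells, 3.59, 14.5 and 23.5 CPM in tumours and 160, 73.0 and 127 CPM in control discs. FBgn0027341, another identifier without a symbol here, had 949, 901 and 1442 CPM in metamorphed cells, 2.38, 9.67 and 19.2 CPM in tumours and 417, 797 and 959 CPM in control discs (adjusted p = 0.39).

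The age of a tumour, as the number of weekly transfers, changed few of these levels past the test. The summed level of the 159 genes was 412 and 345 CPM in the 4-week tumours, 522 and 557 CPM in the 8-week tumours and 649 and 522 CPM in the 14-week tumours. With CPM of total reads the last of these values was 319 CPM. Between 14 and 4 weeks, 103 genes had a higher and 56 a lower estimate, with a median log2 change of 0.19, against 0.00 over all genes. Only out, a putative monocarboxylate transporter gene, was called, where 0.0983% of all genes were, 0.0688% as higher at 14 weeks: out had 0 and 0.134 CPM in the 4-week tumours, 1.56 and 2.14 CPM in the 8-week tumours and 11.8 and 6.5 CPM in the 14-week tumours, a log2 change of 3.20 ± 0.52 between 14 and 4 weeks (adjusted p = 0.039). Its level was higher in both libraries of each later age, but the call was lost when any 1 of the 12 libraries was left out (adjusted p between 0.051 and 0.24). At an unadjusted p under 0.05 there were 30 of the 159 (18.9%), 21 higher and 9 lower at 14 weeks, where 9.45% of all genes passed.

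In metamorphed cells out had 224, 310 and 153 CPM, and in control discs 77.2, 46.1 and 71.0 CPM (log2 fold change 1.78 ± 0.43, adjusted p = 0.0047). No gene of the 159 was called between 8 and 4 weeks, where 17 (10.7%) passed an unadjusted p of 0.05 against 12.4% of all genes, or between 14 and 8 weeks, where 26 (16.4%) passed against 10.6% of all genes, and none by the limma F-test over the 3 ages, with a smallest adjusted p of 0.12. By that F-test 34 of the 159 (21.4%) passed an unadjusted 0.05, where 12.4% of all genes did and 0.0197% passed after adjustment.

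The tumours with the highest values were not the same for every gene. Of the 159 genes, 48 were highest in the second 14-week tumour and 18 to 27 in each of the others. The authors' normalization factor was 0.611 for that library and 0.965 to 1.149 for the other tumours, which raises its CPM, and with CPM of total reads it was the highest for 29 genes and the others for 20 to 32. No read was found for 40 and 21 of the genes at 4 weeks, for 49 and 46 at 8 weeks and for 29 and 13 at 14 weeks. The number of genes at 1 CPM or more was 53 and 65 at 4 weeks, 79 and 70 at 8 weeks and 74 and 86 at 14 weeks. Total reads of the tumours lay within a range of 16619078 to 24144498, and the part of depth in these counts was not tested. Among control discs, control 3 was the highest library for 84 genes and control 2 the lowest for 81.

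Other gene lists held few of the 159 genes or none. None of 9 testable apical matrix genes of the ZP family met the selection, and 5 of them were lower in tumours than in control discs and 3 higher in metamorphed cells relative to tumours. The same counts were 10 and 11 for 24 septate junction genes, 5 and 13 for 16 muscle genes and 2 and 4 for 5 tracheal genes, none of which met the selection, and 6 and 3 for the 13 testable cone and pigment cell genes besides Rab32. In the other direction, 1 gene of each of these 4 lists was higher in tumours than in control discs (crim, Mlc2, trh and ct), and no ZP gene was. Relative to tumours, 2 cone and pigment cell genes (ct and dve) were lower in metamorphed cells, and no gene of the other lists named here was.

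Not all genes that were lower in tumours than in control discs were this high in metamorphed cells. In all, 409 genes had a control mean of at least 4, lay at least 3 above tumours and did not overlap them, and the 159 genes made up 38.9% of these. Of the 250 others, 111 were within 1 log2 unit of the tumours in metamorphed cells, 71 were 1 to 3 above them, and 68 were at least 3 above them without meeting the remaining conditions. Taken from the other side, 879 genes had a metamorphed mean of at least 4, lay at least 3 above tumours and did not overlap them, of which the 159 genes were 18.1%. Just inside the difference limit of 3 were ovo (3.00), CG9801 (3.12) and CG7231 (3.12), and just outside it CG10283 (2.98), Ets98B (2.97) and CG17754 (2.97).

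The genes were spread over the genome (dm6 coordinates of the Ensembl annotation), with 35 on 2L, 25 on 2R, 36 on 3L, 38 on 3R, 21 on X and 1 on 4, out of 156 with an annotation; the shares of X (13.5%) and 2R (16.0%) were a little below those of the 5036 genes present in both groups (17.7% and 20.1%, over the 4886 of them with an annotation). They were long: the median span was 7620 bases and the median of the longest transcript 2633 bases, against 3138 and 2214 bases for those 4886 genes and 1706 and 1393 bases for all annotated genes. These figures are descriptions, without a test. Pairs or triplets of the genes within 10 kb of each other occurred at 5 places. Tep2 (chromosome 2L, 7693727 to 7701601, minus strand) and Tep3 (7702805 to 7710690, plus strand) are separated by 1203 bases, and only Tep2 rose above control discs.

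On X, Yp2 (10050951 to 10052636, minus strand) and Yp1 (10053811 to 10055498, plus strand) are divergent neighbours, and beside them lies asRNA:CR45185 (10044909 to 10048156), which was not called, with 30.9, 26.1 and 59.1 CPM in metamorphed cells and 56.1, 56.1 and 72.9 CPM in control discs (adjusted p = 0.26). CG32032 (3L, 9093053 to 9094856) and CG13315 (3L, 9096877 to 9097494) lie on the same strand 2020 bases apart and changed in opposite directions: CG32032 had 39.0, 44.4 and 28.4 CPM in metamorphed cells and 284, 123 and 238 CPM in control discs (log2 fold change -2.44, adjusted p = 0.0083), and CG13315 had 972, 894 and 1101 CPM in metamorphed cells and 63.5, 24.4 and 18.9 CPM in control discs (log2 fold change 4.95, adjusted p = 3.2e-06). The remaining pairs were CG13937 with Tmhs and Pde9 with CG4404. Of the pair on X, CG4404 rose (log2 fold change 3.92, adjusted p = 3.3e-04) and Pde9 was not called (adjusted p = 0.76). An annotated gene on the opposite strand overlapped 57 of the 159 genes, and since the sources used here do not say whether counting used strand, reads of such partners may be mixed, as for aay, pain, Tep2 and Tep3.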

How the data were processed

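Polyadenylated RNA of metamorphed cells, tumours and control discs was amplified and sequenced (SMARTSeq2, Nextera XT). Per the submitters' processing notes, the authors used TopHat2 2.0.12 and Bowtie2 2.2.3 with dm6, and edgeR 3.16.5 in R 3.3.1; the read counter, its annotation and its use of strand are not given in the sources used here. The authors deposited log2 CPM values of 17521 genes in 12 samples. Each column, exponentiated, held a shared lowest value (0.0643, or -3.96 as log2), which comes from a prior count of 2 reads on average; after its subtraction 100.0% of the deposited values were whole reads within 0.05 read, and these recovered counts gave linear CPM on the authors' normalised library sizes and the total reads per library. No pair of replicates agreed within sampling noise (lowest chi-square per degree of freedom 66.8).

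The selection used the deposited log2 values. Tests used limma 3.58.1 in R 4.3.3 (lmFit, eBayes with trend) on log2(CPM + 1), in a single model of the 5 groups over all 12 samples, for 10177 genes with at least 1 CPM in at least 2 samples; p-values are two-sided and Benjamini-Hochberg adjusted over all 10177 genes, and a gene is called where the adjusted p is under 0.05. The methods state that RNA was collected independently for each replicate; the labels name no separate animals, so p-values measure the spread between these samples, part of which may be technical. The procedure was also run on simulated reads, with 200 genes changed by 3 log2 units in the metamorphed samples. The spread between simulated replicates was a fixed setting and not taken from these data, so the run does not give the error rate here. Tables were handled in Python 3.11.15 with NumPy 2.4.6 and pandas 2.3.3, and drawn with matplotlib 3.10.9.

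Genes were named by rule: the 10 with the largest lower difference from tumours, those in a gene list, the 5 with the highest mean CPM in each group, the 6 largest changes in each direction between metamorphed cells and control discs among called genes without overlap, genes called between ages, the 3 on each side of the difference limit, neighbours within 10 kb, and genes with symbols of known function. The genes and the lists were chosen with earlier results of these data known. Gene lists, from general knowledge, were those of chitin and cuticle assembly, apical matrix proteins, tanning and epidermal barrier, septate junctions, retinal determination, photoreceptors, cone and pigment cells, neurons, glia, muscle, haemocytes, fat body, trachea, the ecdysone response and antimicrobial peptides. Symbols and dm6 positions came from the Ensembl annotation, in which 17215 of the identifiers were found. Alternatives changed the pseudocount, filter, scaling, variance trend, samples fitted, threshold and left-out library, and added a replicate block. Same-numbered samples of different groups had a mean correlation of deviations of -0.02 (21 pairs), so the numbers were not taken to pair them.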

Additional observations from a re-analysis of the deposited data

Results flagged for a closer look

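The level of out was flagged because it differed between tumours of different age, with a log2 change of 3.20 between 14 and 4 weeks. For 16 of the 69 genes whose tumour values are given, a single tumour of the 6 stood apart from the others by Dixon's test on log2(CPM + 1). The test flags about 1 in 20 groups by chance where values are normally distributed. Many of these genes had no read in several tumours, and a gene with reads in only 1 tumour is always flagged. The counts of flagged genes can therefore not be set against 1 in 20. The 6 tumours are of 3 ages, so that the groups are not uniform. The second 14-week tumour stood apart with 1.96 CPM of Cda5, 1.29 CPM of B-H1, 3.93 CPM of Ank2, 0.0677 CPM of Tep3, 0.135 CPM of Picot, 1.69 CPM of Oat, 0.203 CPM of GV1, 3.93 CPM of FBgn0031629, 0.542 CPM of flap and 0.406 CPM of Ance, all above the other tumours. The second 4-week tumour stood apart with 0.134 CPM of sob, above the others, and with 2.14 CPM of Tig, below them. The remaining cases were the first 4-week tumour for Mdr65 (2.37 CPM), the first 8-week tumour for sm (2.56 CPM) and the second 8-week tumour for Glut1 (1.82 CPM) and CG34355 (2.71 CPM), each above the others. Over all 159 genes, 41 (25.8%) had such a tumour, and for 17 of them it was the second 14-week tumour, against 10 of 33 with CPM of total reads (its normalization factor is 0.611); that tumour also had the highest summed level of antimicrobial peptide genes among tumours (95.2 CPM). Several of these levels rest on fewer than 10 reads.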

How the results depend on the processing

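Of the 64 genes called between metamorphed cells and control discs, 37 kept their call in all 25 alternatives and none changed sign in any. Of the 95 others, 69 were called in none of the alternatives, and the estimate of 45 changed sign in at least 1. The 49 higher and 15 lower genes became 32 and 8 on the deposited log2 values, and 34 and 9 with a pseudocount of 0.1 CPM; leaving out a library gave 44 to 52 higher and 10 to 17 lower. Quantile normalization moved the median of all genes to -0.10 and gave 47 higher and 20 lower. The 1 call between 14 and 4 weeks became 0 with a pseudocount of 5 CPM, without a filter, with quantile normalization, CPM of total reads, the compared groups alone, limma-voom or an adjusted p of 0.01, became 3 with a pseudocount of 0.1 CPM or the deposited values, 2 with a filter of 10 CPM, no variance trend or the transcript length trend removed, and 0 to 2 without a library. The F-test over ages, with 0 calls, gave 2 with a pseudocount of 0.1 CPM, 3 on the deposited values and 0 to 7 without a library (7 without the first 14-week tumour, 2 without the second and 1 without the second 4-week tumour). The selection of 159 genes became 241 with a minimum of 3 and 87 with a minimum of 5, and 153 to 176 without a library; with quantile normalization it became 110, of which 109 were shared, with CPM of total reads 173 (146 shared) and with the length trend removed 128 (120 shared). The replicate block left 48 higher, 14 lower and 0 between ages. The mean correlation was -0.02 for same-numbered samples and 0.01 for others, which cannot exclude a pairing of tumours. Why these counts moved was not tested. limma-voom, the removal of the length trend, the glial sum without Gs2 and the counts of genes by tumour on total reads were chosen after seeing the data; an edgeR fit was planned and not run, since the deposited values are log2 CPM. Depth limits the tumour levels: 3 reads were 0.121 to 0.203 CPM there, and the shallowest control library had 2072498 reads.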
